A study of Homo sapiens with 4 samples.

Results

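The extrinsic death pathway is described here by 8 genes: the ligand TNFSF10 (TRAIL), the death receptors TNFRSF10A (DR4), TNFRSF10B (DR5) and FAS, the decoy receptor TNFRSF10D (DcR2), the adaptor FADD, the initiator caspase CASP8 and its inhibitor CFLAR (c-FLIP). They were taken by symbol from the deposited counts of 12912 genes, and all 8 were present, each under 1 identifier. The other initiator caspases, CASP2, CASP9 and CASP10, were counted with the remaining genes of the pathway. All libraries came from 786-O, a clear cell renal carcinoma cell line without functional VHL, labeled by a retroviral triple reporter of GFP, luciferase and thymidine kinase. The 786-O-Ctrl cells were VHL-null, and the 786-O-VHL cells carried in addition a retroviral vector for HA-tagged human VHL. RNA was sequenced in 2 libraries of each subline, so that 1 control subline was compared with 1 restored subline to see which mRNAs differ. An effect of VHL cannot be told apart here from other differences between the sublines, and "after restoration" below names the 786-O-VHL subline.

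TRAIL is a membrane ligand that gathers its receptors into trimers. TNFRSF10A, TNFRSF10B and FAS carry a death domain inside the cell, through which FADD is recruited, and FADD in turn binds CASP8, which activates itself by proximity and cleaves the effector caspases. TNFRSF10D binds TRAIL but has a truncated death domain. CFLAR resembles CASP8 without the catalytic cysteine and takes its place at the receptor, so that the balance of both sets how the signal is passed on. VHL is the substrate receptor of a ubiquitin ligase that removes the alpha subunits of the hypoxia-inducible factors. 786-O expresses HIF2α and not HIF1α.

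The counts summed to between 2807779 and 22141263 per library, and VHL replicate 1 was the shallowest. The 786-O-Ctrl columns share 1 replicate number, so these controls are told apart by depth, and values are given for the deeper control, the shallower control, VHL replicate 1 and VHL replicate 2 in that order. Levels are CPM, counts relative to the library total scaled by edgeR's TMM factors, and differences are log2 fold changes (log2FC) of restored over control cells from edgeR's quasi-likelihood test, called at a Benjamini-Hochberg FDR under 0.05 over the 12335 genes tested. VHL mRNA itself was at 42.9 and 43.9 CPM in the controls and at 178 and 163 CPM after restoration, in the direction of the labels, although the counts do not separate the vector from the endogenous gene. All 9 markers of a renal epithelial carcinoma line (PAX8, PAX2 and others) were measured, with summed levels of 3863 and 3852 CPM in the controls and 2841 and 2720 CPM after restoration, and 6 of the 9 were lower, 2 were higher (CDH6 and EPAS1) and 1 did not pass the test, where 31.9% of all genes tested were lower and 32.6% higher. Of 6 leukocyte markers only CD14 was measured, at 1.02 CPM or less. The 3 of 5 endothelial and 3 of 5 fibroblast markers that were measured summed to at most 1.33 and 15.3 CPM. The other markers are missing from the counts, which does not show that they were not expressed. The fibroblast sum was 10.4 and 11.4 CPM in the controls against 15.3 and 14.6 CPM after restoration, and the part of these shifts in the results was not tested. In bulk RNA, fewer cells that express a gene and less RNA per cell cannot be told apart.

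Of the 8 genes, 4 were lower after VHL restoration (TNFSF10, TNFRSF10D, FADD and CFLAR), and TNFRSF10A, TNFRSF10B, FAS and CASP8 did not pass the test. The falls ranged from 2.68-fold for the ligand to 1.17-fold for CFLAR. Across all genes tested, 31.9% were lower and 32.6% were higher at this FDR (64.5% in either direction), so that 4 called of 8 is a smaller share than among all genes and 4 lower of 8 a larger one, with no test of either. No member was higher, also at an unadjusted p under 0.05 or with DESeq2 or limma-voom, but under library totals alone 2 were higher (TNFRSF10B and CASP8) and 3 were lower. All 4 calls held at an FDR under 0.01, which 55.0% of all genes passed, and none exceeded 4-fold, which 4.46% did. Both restored libraries were below both controls for 5 of the genes (39.2% of all genes) and above them for 1 (40.8%), so that 6 of 8 did not overlap (80.0%). The median log2FC of the 8 genes was -0.21, beside 0.02 over all genes tested.

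**Figure D1:**
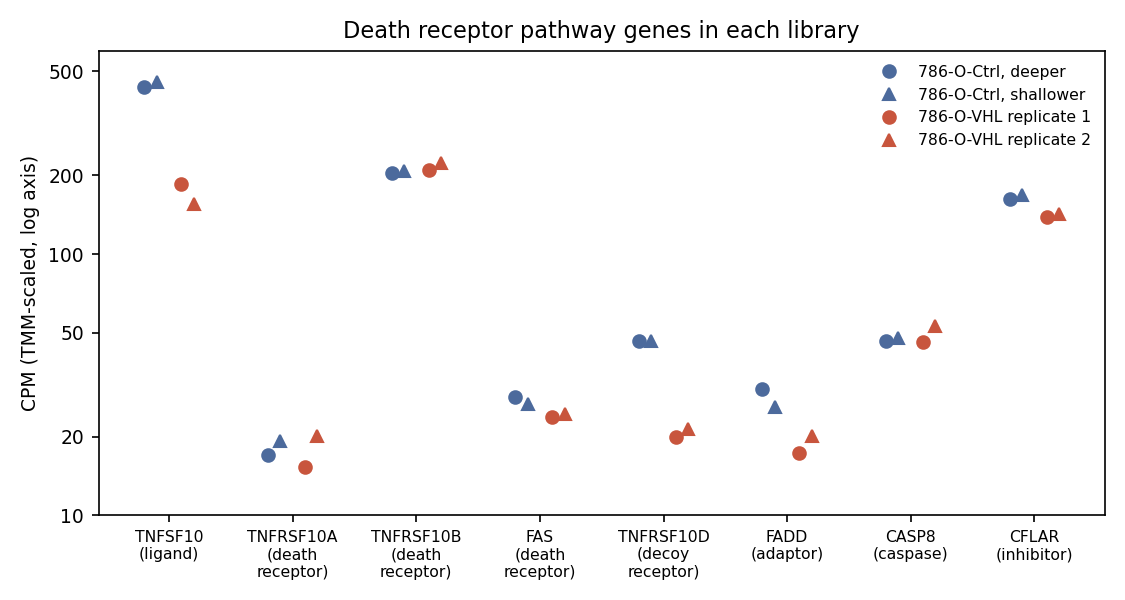
Level of each of the 8 genes in the 4 libraries, in TMM-scaled CPM on a log axis, with 786-O-Ctrl in blue and 786-O-VHL in red. Both restored libraries lie well below both controls for TNFSF10 (186 and 155 against 436 and 455 CPM) and TNFRSF10D (20.01 and 21.4 against 46.5 and 46.5 CPM), while those of TNFRSF10A and CASP8 overlap.

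TNFSF10, which encodes TRAIL, had the highest CPM of the 8 in the controls and fell the most, and after restoration its CPM was below that of TNFRSF10B. The gene (ENSG00000121858.11) spans positions 172223298 to 172241265 of chromosome 3 in GRCh37, minus strand, and all gene positions below are in that build. It had 9172 and 6839 counts in the controls, and 547 and 2612 counts in VHL replicates 1 and 2. These were 436 and 455 CPM against 186 and 155 CPM, and the libraries of the sublines did not overlap. The mean was 445 ± 13.4 CPM (SD, n = 2) in the controls and 170 ± 21.5 CPM (SD, n = 2) after restoration, with a log2FC of -1.42 (SE 0.0724, 95% interval -1.57 to -1.27, edgeR FDR = 5.52e-16). Of the genes tested, 9.28% had a larger change in either direction, and 7.52% were lower by over 2-fold at an FDR under 0.05, as TNFSF10 and TNFRSF10D were. Leaving out each library in turn gave log2FC values between -1.52 and -1.27.

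Promoter windows of 250 bases before to 50 bases after a start site were available from RefSeq (GRCh38.p14) for 5 of the 8 genes (TNFSF10, FAS, FADD, CASP8 and CFLAR), and were searched on both strands for 4 motifs. These were a core of interferon response elements (GAAA, any 2 bases, GAAA), ACGTG as a core of HIF sites, GGGCGG as the GC box, and the kappaB consensus. ACGTG can lie within an E-box, and GC box and kappaB matches can overlap. The windows of TNFSF10 and CASP8 are shown because they alone among the windows of these 5 genes held the interferon core, which 3.57% of 35116 windows hold, and because the ligand fell whereas the caspase did not pass the test. Capitals mark the motif matches, which read TTTCAGTTTC in TNFSF10, at positions -187 to -178 from the start site, and TTTCTGTTTC across the start site of CASP8, both on the reverse strand. The CASP8 window also holds a GC box (GGGCGG).
TNFSF10, chr3:172523381-172523680, minus strand: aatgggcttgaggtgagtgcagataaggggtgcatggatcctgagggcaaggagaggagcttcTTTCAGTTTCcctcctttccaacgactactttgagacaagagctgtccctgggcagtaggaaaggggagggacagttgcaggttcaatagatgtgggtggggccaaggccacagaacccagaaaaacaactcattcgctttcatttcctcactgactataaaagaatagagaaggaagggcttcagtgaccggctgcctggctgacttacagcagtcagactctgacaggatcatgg
CASP8, chr2:201233213-201233512, plus strand: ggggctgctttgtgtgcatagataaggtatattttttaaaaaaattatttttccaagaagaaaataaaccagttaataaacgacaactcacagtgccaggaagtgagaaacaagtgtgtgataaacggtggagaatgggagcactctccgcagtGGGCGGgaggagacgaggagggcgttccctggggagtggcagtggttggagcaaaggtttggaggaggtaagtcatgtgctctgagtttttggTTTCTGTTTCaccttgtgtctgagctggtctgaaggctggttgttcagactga
The TNFSF10 window held neither ACGTG nor a GC box nor the kappaB consensus. A match describes the letters only, and no binding was measured.

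The receptors that transmit the TRAIL signal did not pass the test. TNFRSF10B (DR5), the more abundant of the pair, lies on the minus strand of chromosome 8 from 22877646 to 22926544 (ENSG00000120889.13). Its counts of 4311, 3127, 616 and 3742 corresponded to 205 and 208 CPM in the controls and to 209 and 222 CPM in VHL replicates 1 and 2. Both restored libraries were above both controls, but the difference did not pass the test. The log2FC was 0.08 (SE 0.0635, 95% interval -0.05 to 0.21, edgeR FDR = 0.307). Under plain library totals the value was 0.21 and called (edgeR FDR = 0.00475), a scaling that moved the median of all genes by 0.13. Exons of RHOBTB2, on the opposite strand, overlap TNFRSF10B, and without knowing the use of strand in counting their reads cannot be told apart.

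TNFRSF10A (DR4), on the minus strand of chromosome 8 from 23047965 to 23082615 (ENSG00000104689.9), was the least abundant of the 8 in CPM, level with FADD in VHL replicate 2. It was at 17.0 and 19.2 CPM in the controls and at 15.3 and 20.1 CPM after restoration, where replicate 1 held 45 counts. Its lowest and its highest value both came from 786-O-VHL. The log2FC was 0.08 (SE 0.135, 95% interval -0.20 to 0.36, edgeR FDR = 0.615), while the mean CPM was slightly lower after restoration, at 17.7 ± 3.44 against 18.1 ± 1.59 (SD, n = 2 each). Its sign turned to -0.040 without the deeper control and to -0.24 without VHL replicate 2. Antisense RNAs are annotated across exons of TNFRSF10A, and the 4 TRAIL receptors of chromosome 8 resemble each other, so that reads may be shared.

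FAS, the receptor of Fas ligand, lies on the plus strand of chromosome 10 from 90750414 to 90775542 (ENSG00000026103.22). Its levels were 28.4 and 26.7 CPM in the controls and 23.7 and 24.3 CPM after restoration. Both restored libraries were below both controls, as for 39.2% of all genes. The log2FC of -0.19 (SE 0.111, 95% interval -0.42 to 0.04) did not pass the test (edgeR FDR = 0.14). ACTA2 overlaps an exon of FAS on the opposite strand.

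The decoy receptor TNFRSF10D was lower after restoration, to less than its level in either control. It lies on the minus strand of chromosome 8 from 22993101 to 23021540 (ENSG00000173530.6), and no other annotated gene overlaps it. It had 979 and 699 counts in the controls and 59 and 360 counts in VHL replicates 1 and 2. At 46.5 and 46.5 CPM against 20.01 and 21.4 CPM, the libraries did not overlap, and replicates of a subline differed little. The log2FC was -1.14 (SE 0.102, 95% interval -1.35 to -0.93, edgeR FDR = 1.03e-10), a 2.20-fold fall. With each library left out in turn it stayed between -1.22 and -1.12.

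A ratio within a library does not depend on how libraries are scaled. The ratio of TNFRSF10D counts to the summed counts of TNFRSF10A and TNFRSF10B was 0.210 and 0.205 in the controls, and 0.0893 and 0.0882 after restoration. TNFRSF10D reads per signaling receptor read were thus 2.33-fold lower after restoration. The log2 difference was -1.22 against standard deviations of 0.0251 in the controls and 0.012 after restoration. A two-sided exact permutation test gave p = 0.333, the smallest p that 2 libraries against 2 allow. The decoy receptor TNFRSF11B, which is not in this ratio, went the other way. It was at 11.1 and 10.6 CPM in the controls and at 16.6 and 13.8 CPM after restoration (log2FC 0.41, edgeR FDR = 0.0236). Its call was not followed through the other fits. The ratio of ligand to signaling receptor counts, added after the values had been seen, was 1.96 and 2.002 in the controls and 0.828 and 0.640 after restoration. Ligand reads outnumbered those of its signaling receptors in the controls and were fewer than those after restoration (exact permutation p = 0.333). These are reads and not molecules, since the annotated exons of TNFSF10 cover 3.44 kb and those of TNFRSF10B 5.01 kb. Per kb of exon, restored TNFSF10 was at 53.9 and 45.1 CPM, TNFRSF10B at 41.7 and 44.4 and TNFRSF10A at 5.22 and 6.88.

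**Figure D2:**
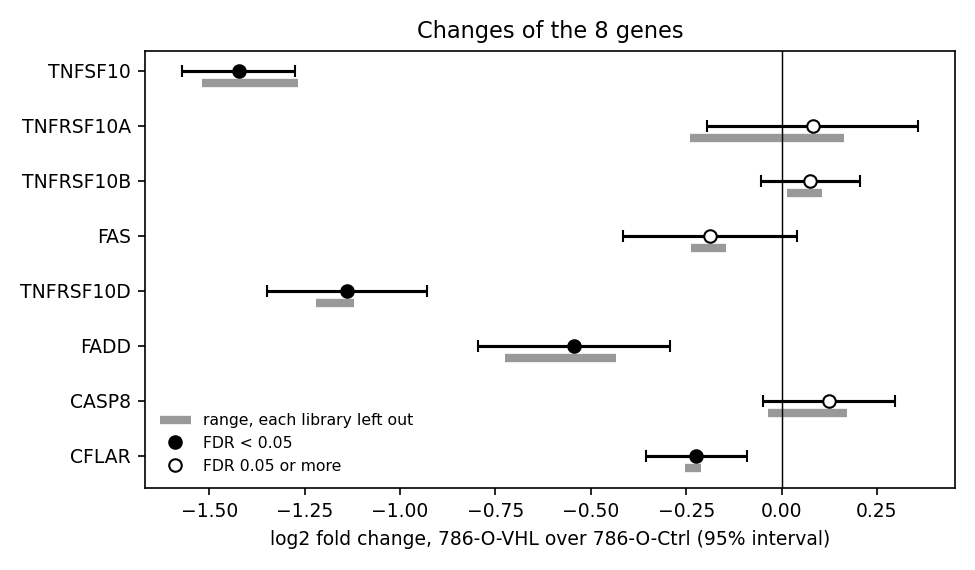
Log2 fold change (log2FC) of each gene (786-O-VHL over 786-O-Ctrl) with its 95% interval, filled where the edgeR FDR was under 0.05, above a gray bar for the range with each library left out in turn. TNFSF10 and TNFRSF10D lie near -1.42 and -1.14, FADD at -0.54 and CFLAR at -0.22, and the intervals of TNFRSF10A, TNFRSF10B, FAS and CASP8 include 0.

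FADD, the adaptor between the receptors and CASP8, lies on the plus strand of chromosome 11 from 70049402 to 70053496 (ENSG00000168040.4). It was at 30.5 and 26.1 CPM in the controls and at 17.3 and 20.1 CPM after restoration, from 643, 392, 51 and 339 counts. The libraries of the sublines did not overlap, though the replicates of each differed more than those of TNFRSF10D. FADD fell by 0.54 on the log2 scale (SE 0.122, 95% interval -0.79 to -0.29, edgeR FDR = 0.00032), or 1.46-fold. A long noncoding RNA on the opposite strand overlaps its exon. The FADD window, shown because the gene fell, held the GC box on either strand (CCGCCC and GGGCGG, in capitals) and none of the other motifs.
FADD, chr11:70203046-70203345, plus strand: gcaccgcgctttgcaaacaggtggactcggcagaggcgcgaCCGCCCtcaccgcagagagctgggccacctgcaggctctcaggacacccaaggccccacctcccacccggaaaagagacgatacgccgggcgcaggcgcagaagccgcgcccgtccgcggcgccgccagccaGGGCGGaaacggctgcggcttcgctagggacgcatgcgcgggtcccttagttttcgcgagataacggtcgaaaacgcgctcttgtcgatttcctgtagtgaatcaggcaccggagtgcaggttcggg
The GC box is common, being found in 44.95% of all windows.

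CASP8, the initiator caspase, lies on the plus strand of chromosome 2 from 202098166 to 202226559 (ENSG00000064012.21). It was at 46.6 and 47.8 CPM in the controls and at 46.1 and 53.1 CPM after restoration. The groups overlapped, with the lowest and the highest value both after restoration. The log2FC was 0.12 (SE 0.0845, 95% interval -0.05 to 0.30, edgeR FDR = 0.205), and without VHL replicate 2 it was -0.036. With library totals alone it was 0.26 and called (edgeR FDR = 0.00932), before the shift of 0.13 in the median of all genes is taken off. A long noncoding RNA on the same strand shares exon positions with CASP8, so that reads may be mixed.

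CFLAR, in the same cluster on the plus strand of chromosome 2 from 201980877 to 202041410 (ENSG00000003402.20), was the more abundant by reads. It was at 163 and 168 CPM in the controls and at 139 and 143 CPM after restoration. The libraries did not overlap and the replicates lay close together, but the difference was small. CFLAR fell by 0.22 on the log2 scale (SE 0.0646, 95% interval -0.36 to -0.09, edgeR FDR = 0.00357), or 1.17-fold. The call was lost without the shallower control (edgeR FDR = 0.0905), after thinning of the libraries to equal depth (0.144) and with scaling by library totals alone (0.221). An antisense gene and a long noncoding RNA on the same strand share exon positions with CFLAR, and counts per gene do not separate its long and short protein forms.

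The ratio of CFLAR to CASP8 counts was 3.50 and 3.51 in the controls and 3.01 and 2.69 after restoration. Both restored ratios were lower, by a log2 difference of -0.30 with standard deviations of 0.0045 and 0.117 (exact permutation p = 0.333, the smallest possible). CFLAR reads per CASP8 read were thus 1.23-fold lower. The ratio counts reads and not molecules, since the annotated exons of CFLAR cover 22.5 kb and those of CASP8 7.24 kb. The first CFLAR window is shown beside that of CASP8 above because the genes lie in 1 cluster and differ in call. Capitals mark a HIF core on the reverse strand (CACGT) and a GC box that runs into a kappaB match (GGGGAATTCC).
CFLAR, chr2:201118466-201118765, plus strand: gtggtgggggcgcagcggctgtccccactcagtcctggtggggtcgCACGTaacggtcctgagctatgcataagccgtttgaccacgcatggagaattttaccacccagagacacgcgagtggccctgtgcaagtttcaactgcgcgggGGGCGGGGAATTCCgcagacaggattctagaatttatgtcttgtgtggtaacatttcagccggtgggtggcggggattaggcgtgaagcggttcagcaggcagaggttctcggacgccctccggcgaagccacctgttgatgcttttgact
The HIF core is found in 21.4% and the kappaB consensus in 11.3% of all windows, and the 3 other CFLAR windows held neither. Another window of CASP8, not shown, also held the HIF core. A window of FAS held both the HIF core and the kappaB consensus, and neither CASP8 nor FAS passed the test.

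To compare levels between genes, CPM were divided by the exonic length of each gene. Per kb, TNFSF10 was the highest in the controls at 129 ± 3.90 CPM (SD, n = 2), followed by TNFRSF10B at 41.2 ± 0.438, FADD at 16.6 ± 1.86 and TNFRSF10D at 13.1 ± 0.007. FAS, CFLAR, CASP8 and TNFRSF10A lay between 7.73 and 6.18 CPM per kb. There FAS lay above CFLAR by about the SD of FAS, and the libraries of CASP8 and TNFRSF10A overlapped. In 786-O-VHL, TNFSF10 at 49.5 ± 6.26 and TNFRSF10B at 43.0 ± 1.87 CPM per kb were next to each other, about 1 SD of TNFSF10 apart. FADD followed at 11.0 ± 1.17, and the other 5 genes lay between 6.86 and 5.85 CPM per kb with TNFRSF10D now the last. Of these, the libraries of TNFRSF10A overlapped those of CASP8, FAS, CFLAR and TNFRSF10D, and the libraries of CASP8 and FAS overlapped each other. Exonic lengths count every annotated transcript, so that the level of CFLAR in particular is a low estimate.

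Members of 1 cluster differed in their calls. The TRAIL receptor genes TNFRSF10A to TNFRSF10D lie in 1 cluster on chromosome 8. There TNFRSF10D, between TNFRSF10B and TNFRSF10A, fell, and TNFRSF10B and TNFRSF10A did not pass the test. TNFRSF10C, the other decoy of the cluster, was not found by symbol in the deposited counts and has no value here. On chromosome 2, CASP10, a paralog of CASP8, lies between CFLAR and CASP8 and had a log2FC of 0.06 (SE 0.173, edgeR FDR = 0.795) at 10.2 and 9.50 CPM in the controls and 8.48 and 10.7 CPM after restoration. Of 13 tested genes that are no members and lie within 100 kb of one, CASP10 included, 4 were lower and 1 was higher. The other 8 did not pass the test, and the median log2FC was 0.03. Among all genes tested, 31.9% were lower and 32.6% higher. The largest called change among these neighbors was that of NDUFB3, a subunit of respiratory complex I beside CFLAR, at -0.83 (edgeR FDR = 2.55e-08).

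**Figure D3:**
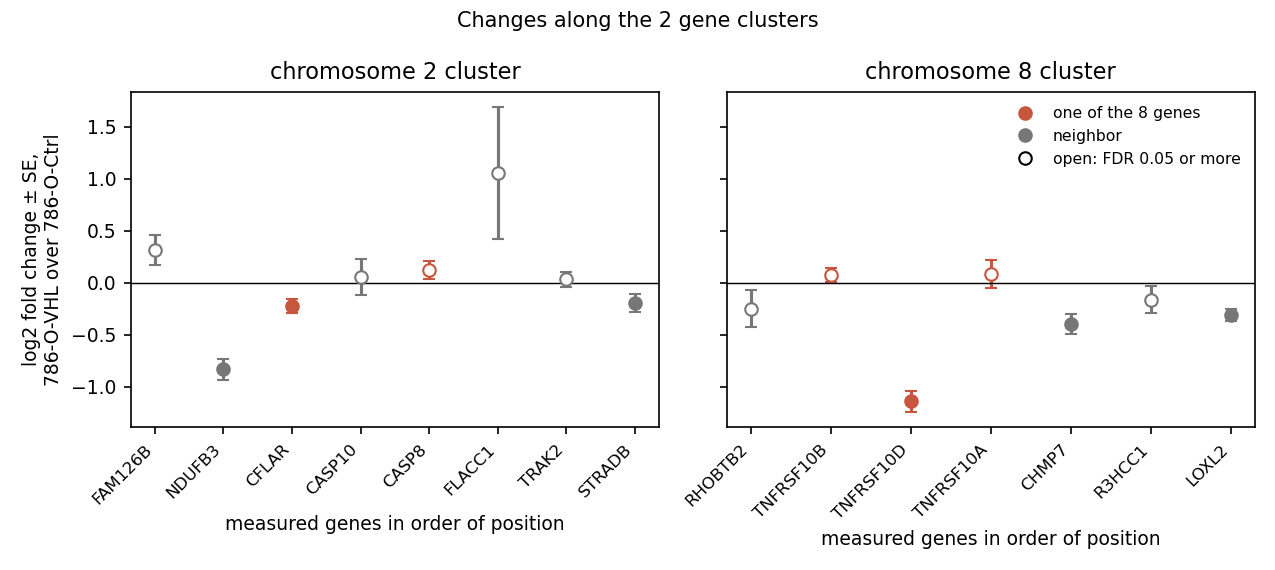
Log2 fold change ± SE of the measured genes in order of position around CFLAR and CASP8 (left) and around the TRAIL receptors (right), with the members in red, other genes in gray and open symbols where the edgeR FDR was 0.05 or more. TNFRSF10D, at -1.14, stands apart from TNFRSF10B and TNFRSF10A on either side, both at 0.08.

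Other ligands and receptors of the TNF family moved in both directions. Of 30 listed genes 18 were in the table and 17 were tested. Of these, 6 were higher, 8 were lower and 3 did not pass, with a median log2FC of -0.30. TNFRSF21 (DR6), an orphan death receptor, was at 38.7 and 36.6 CPM in the controls and at 111 and 99.5 CPM after restoration, with a log2FC of 1.45 (SE 0.0765, edgeR FDR = 1.28e-15). The neurotrophin receptor NGFR rose by a log2FC of 1.56 (edgeR FDR = 7.89e-05) from a low level of 1.61 CPM. The ligand TNFSF4 (OX40L), at 1.68 (edgeR FDR = 0.00412), rests on the 33 counts of VHL replicate 2. Its call was lost without that library or without the deeper control, with values down to 0.35 (highest edgeR FDR = 0.844). RELT, a receptor of the TNF family, fell the most, from 20.1 and 18.9 to 7.12 and 6.59 CPM, with a log2FC of -1.55 (SE 0.16, edgeR FDR = 1.89e-09). TNFRSF11A (RANK) followed at -1.12 (edgeR FDR = 3.83e-08), and the TWEAK ligand TNFSF12 at -0.73 (edgeR FDR = 0.00808). The call of TNFSF12 was lost without either control and without VHL replicate 2 (highest edgeR FDR = 0.116), and a readthrough gene shares its exons.

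Of 21 partners of the receptor complexes, 19 were tested. Here 6 were higher, 8 were lower and 5 did not pass, with a median log2FC of -0.07. RBCK1 (HOIL-1), a subunit of the linear ubiquitin ligase, rose from 347 and 355 to 793 and 818 CPM, with a log2FC of 1.20 (SE 0.0603, edgeR FDR = 4.25e-16), and CYLD, which removes such chains, rose by 0.93 (SE 0.0871, edgeR FDR = 2.41e-10). The adaptor CRADD was higher by 0.58 (edgeR FDR = 0.0422), a call that was lost without the shallower control or either VHL replicate (highest edgeR FDR = 0.306). TNFAIP3 (A20), a ubiquitin-editing inhibitor of TNF signaling, fell by 1.09 on the log2 scale (SE 0.118, edgeR FDR = 4.68e-09). The kinase RIPK1 and the adaptor TRAF1 followed with log2FC of -0.58 (edgeR FDR = 2.71e-06) and -0.57 (edgeR FDR = 6.84e-05).

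Among 13 tested caspases and caspase activators, 3 were higher and 7 were lower, with a median log2FC of -0.46. CASP1, the caspase of inflammasomes, had the largest log2FC of the list. It had 5 and 5 counts in the controls and 17 and 97 counts in VHL replicates 1 and 2, a rise from 0.237 and 0.332 CPM to 5.77 and 5.76 CPM (log2FC 4.33, SE 0.41, edgeR FDR = 3.28e-10). The inflammatory caspase CASP4 rose slightly, by 0.30 (edgeR FDR = 0.00737), a call that was lost without the deeper control (edgeR FDR = 0.0794). HTRA2, a mitochondrial protease that antagonizes inhibitors of apoptosis, fell by 0.77 on the log2 scale (SE 0.0723, edgeR FDR = 2.6e-10). DIABLO (SMAC), with the like function, was at -1.25 (edgeR FDR = 0.00584) on 53, 47, 4 and 19 counts. Overlapping genes on the same strand may take its reads, and the call was lost without the shallower control or VHL replicate 2 (highest edgeR FDR = 0.248).

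Both tested necroptosis genes of 4 listed were lower, the pore-forming effector MLKL at -0.92 (edgeR FDR = 1.85e-05) and the adaptor TICAM1 at -0.53 (edgeR FDR = 7.98e-05). The MLKL call was lost without VHL replicate 2 (edgeR FDR = 0.0628). Of 8 caspase substrates, 5 were lower and none was higher, also at an unadjusted p under 0.05, with a median log2FC of -0.25. The nuclear lamin LMNB1, at -1.69 (edgeR FDR = 1.45e-17), the repair enzyme PARP1, at -1.27 (edgeR FDR = 5.44e-15), and LMNA, at -0.81 (edgeR FDR = 1.2e-11), fell the most. Protein-coding genes on the opposite strand share exon positions with RBCK1 and HTRA2, whose reads may be mixed. With DESeq2 the calls of TNFSF4, TNFSF12, CRADD, CASP4 and DIABLO were lost. All list counts are to be read beside the 31.9% lower and 32.6% higher among all genes.

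**Figure D4:**
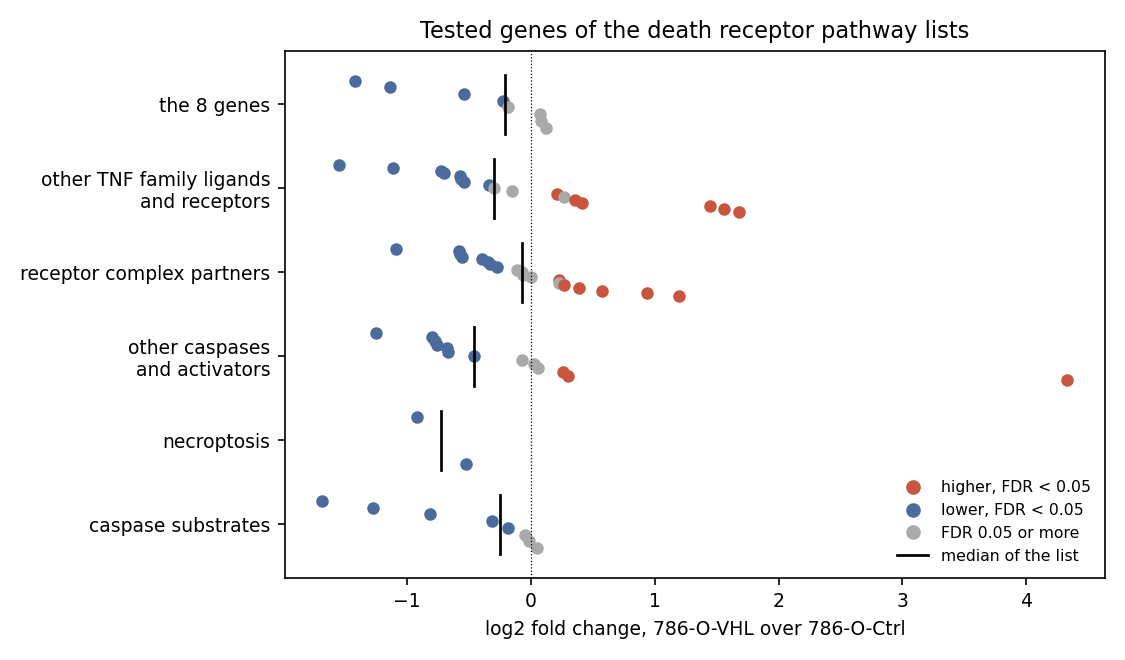
Log2 fold change of each tested gene in the 8 genes described and in the other lists, colored by call (red higher, blue lower, gray FDR of 0.05 or more), with a black line at the median of each list. The medians lie between -0.73 and -0.07, and CASP1 at 4.33 lies far above the other caspases.

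By the pattern over the 4 libraries, the genes most like TNFSF10 were FUBP1, FKBP14 and CENPJ, with Euclidean distances of 0.0633, 0.077 and 0.0847 between log2 CPM centered over the libraries. Their log2FC values were -1.42, -1.43 and -1.48. A total of 600 genes lay within a distance of 0.5, so that the pattern is a common one in these 4 libraries. Replicates of the 8 genes differed by at most 0.23 on the log2 scale in the controls, in FADD, and by at most 0.40 after restoration, in TNFRSF10A. The medians over all genes tested were 0.08 and 0.16. Since the highest values of the 8 genes and medians are unlike measures, they do not show whether the 8 genes varied more than others.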

How the data were processed

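Total RNA of both sublines was made into Illumina TruSeq libraries. The deposited values are raw counts per gene on hg19, made by the authors without normalization. CASAVA and STAR are named in the submitters' processing notes, with no version. How reads were counted, on which annotation and whether by strand is not given in the sources used here. Nothing states that libraries came from separate cultures, so p-values measure the spread between these libraries, which may be technical. The members and gene lists were chosen with earlier results of these data known. Replicates differed by more than sampling noise (chi-square per degree of freedom 2.25 for the controls, 2.76 after restoration).

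The main test was the quasi-likelihood test of edgeR 4.0.16 (R 4.3.3), run after filterByExpr at a minimum count of 10 (12335 of 12912 genes kept) and TMM scaling, with the group as the only term over all 4 libraries. Standard errors and 95% intervals follow from the F statistic. Counts were simulated for this comparison with 12335 genes and a common dispersion. Of 200 genes changed 2-fold or 4-fold in either direction, 190 were recovered, with 5 false calls. Smaller changes, such as those of FADD and CFLAR, were not simulated, nor was a share of changed genes as large as here. Ratios were tested by exact permutation. Alternatives were DESeq2 1.42.0, limma-voom (limma 3.58.1), RLE, library totals, 2 other filters, thinning, other thresholds and each library left out. Genes were named as follows: all members, at most 3 called genes per direction and list by absolute log2 fold change, CASP10 and TNFRSF10C, and the 3 genes nearest to TNFSF10. Some genes that this rule names are not reported here. NDUFB3 and TNFRSF11B were named after their values were seen. Coordinates, exonic lengths and overlaps are from GENCODE v44 mapped to GRCh37, where 12749 identifiers matched, and may differ from the annotation used in counting.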

Additional observations from a re-analysis of the deposited data

How the results depend on the processing

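TNFSF10, TNFRSF10D and FADD were lower at FDR < 0.05 in all 11 alternative fits, with log2 fold changes of -1.52 to -1.27, -1.22 to -1.01 and -0.73 to -0.41 (highest FDR for FADD 0.0433, after thinning). FAS did not pass in any. No member passed 4-fold with FDR < 0.01, so that 0 were lower there. Scaling by library totals alone moved the median of all genes by 0.13 on the log2 scale and the called genes from 4017 higher and 3939 lower to 5077 and 3097. Under it 2 members were higher, TNFRSF10B at 0.21 and CASP8 at 0.26, CFLAR was no longer called at -0.090, and 1 caspase substrate was higher. After thinning, CFLAR was no longer called at -0.15, the ratio of TNFRSF10D to its signaling receptors was -1.19 on the log2 scale, and 3 caspase substrates were lower. With DESeq2, 3 other TNF family genes and 1 other caspase or activator were higher. With each library left out, 3 to 4 members were lower and 0 were higher. The log2 fold change of TNFRSF10A ranged from -0.24 to 0.16 (-0.040 without the deeper control), of CASP8 from -0.036 to 0.17 and of CFLAR from -0.25 to -0.21. The other TNF family genes that were higher numbered 3 to 7, the necroptosis genes that were lower 1 to 2 and the caspase substrates that were lower 3 to 5. The causes were not tested. The library that remains alone in its group is assumed to vary like the others.

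No paired analysis was possible because both 786-O-Ctrl columns carry the same replicate number. The depth of 786-O-VHL replicate 1, where 3 counts are 1.02 CPM, limits the genes with few counts.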

Other observations

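The interferon-type motif of the TNFSF10 and CASP8 windows was followed across the genome as a description. Of 9755 tested genes with a RefSeq promoter window, 374 held GAAA, any 2 bases, GAAA on either strand. With edgeR at FDR < 0.05, 154 of these (41.2%) were higher after restoration and 88 (23.5%) lower, beside 32.2% and 32.7% of all genes with a window, and the median log2 fold change was 0.16 beside 0.0045. TNFSF10 is one of the 88 lower genes and CASP8 one of the 132 that did not pass. Genes with the HIF core ACGTG were lower in 34.7% and higher in 30.3% of 3135. For the GC box these shares were 33.9% and 32.0% of 7563 genes, and for the kappaB consensus 32.4% and 34.3% of 1713. Differences between the motifs were not tested. This motif search was chosen after the counts had been seen.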
